A study of Mus musculus with 4 samples.

Results

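The genes described here are the epidermal keratins of the basal layer, *Krt5* and *Krt14*, and of the suprabasal layers, *Krt1*, *Krt2*, *Krt10*, *Krt77*, *Krt78* and *Krt80*. They are 8 of the 32286 features counted in the spatial transcriptomics, 2 basal and 6 suprabasal. They were chosen by gene symbol, with earlier results of these data known. Mice of the genotype *Krox20-CreERT*; *R26-tdTomato* had received 4-hydroxytamoxifen at P2, and their dorsal skin was taken at P38, fresh frozen and laid on 4 slices. Each slice carried sections of the same 3 mice, so the 4 slices are technical replicates, and an SD or p over slices measures the spread between slices and not between mice. The study left a further, distorted section out of its own analysis, which spots lay over it is not given in the sources used here, and all deposited spots over tissue were used. All slices share genotype, induction and age, with no control group, and the Cre marks *Krox20*-lineage cells with tdTomato while every cell under a spot contributes RNA, whether marked or not.

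Keratins form filaments from pairs of a type I and a type II protein. *Krt5* (type II) and *Krt14* (type I) pair in the proliferating basal cells of the interfollicular epidermis (IFE) and in the outer root sheath (ORS), the sleeve of the hair follicle that is continuous with the basal layer. When a basal cell detaches and moves up, it lowers this pair and makes *Krt1* (type II) and *Krt10* (type I), which become the main keratins of the spinous and granular layers. *Krt2* and *Krt77* are further type II keratins of differentiated epidermis, *Krt2* being best known from ear, tail and footpad skin, and *Krt77* being a near relative of *Krt1*. *Krt78* and *Krt80* are type II keratins of differentiating epithelia, and *Krt80* is also made in the hair follicle.

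The type II genes lie on chromosome 15 and the type I genes on chromosome 11, all on the minus strand (GRCm38, protein coding). On chromosome 15, *Krt80* spans 101347444 to 101370162, *Krt5* 101707070 to 101712898, *Krt2* 101810689 to 101818169, *Krt1* 101845426 to 101850794, *Krt77* 101858731 to 101869705 and *Krt78* 101946001 to 101954287. On chromosome 11, *Krt10* spans 99385254 to 99389364 and *Krt14* 100203162 to 100207548. A RefSeq table of promoters (GRCm38.p6, 250 bases before to 50 after a start site) held a window for 6 of the 8 genes, and *Krt1* and *Krt80* had none. The windows of *Krt5*, *Krt10* and *Krt77* are shown, 5′ to 3′ on the gene's strand, because these genes stand for the opposite level patterns described below. Capitals mark the A- and T-rich box 26 to 30 bases before the start site.
Krt5, chr15:101712856-101713155, minus strand: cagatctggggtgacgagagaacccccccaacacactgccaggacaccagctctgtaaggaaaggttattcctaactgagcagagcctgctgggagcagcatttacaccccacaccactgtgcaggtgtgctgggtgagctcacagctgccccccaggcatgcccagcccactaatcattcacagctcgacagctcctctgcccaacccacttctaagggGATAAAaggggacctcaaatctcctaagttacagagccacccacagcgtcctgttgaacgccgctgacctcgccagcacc
Krt10, chr11:99389315-99389614, minus strand: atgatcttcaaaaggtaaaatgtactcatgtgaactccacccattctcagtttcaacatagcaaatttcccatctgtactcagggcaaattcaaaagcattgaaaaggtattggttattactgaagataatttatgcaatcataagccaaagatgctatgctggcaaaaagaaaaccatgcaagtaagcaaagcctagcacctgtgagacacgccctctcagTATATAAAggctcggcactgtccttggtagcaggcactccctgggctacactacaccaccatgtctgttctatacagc
Krt77, chr15:101869656-101869955, minus strand: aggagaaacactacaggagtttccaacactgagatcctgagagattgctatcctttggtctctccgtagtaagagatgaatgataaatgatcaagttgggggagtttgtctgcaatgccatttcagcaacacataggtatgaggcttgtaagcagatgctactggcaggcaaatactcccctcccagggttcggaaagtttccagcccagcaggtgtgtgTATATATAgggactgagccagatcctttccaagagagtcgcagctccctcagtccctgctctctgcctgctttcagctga
The letters TATAAA were found in the *Krt10* window, TATATA in those of *Krt2*, *Krt10* and *Krt77*, and GATAAA at 30 bases before the start site of *Krt5* and *Krt78* and farther out in *Krt2* and *Krt77*. These letters were chosen after the windows had been read. Over both strands of all 32851 promoters, TATAAA was present in 13.6%, TATATA in 5.67% and GATAAA in 10.1%, and matches to these motifs may overlap, as they do in *Krt10*. The AP-1 letters TGANTCA, present in 7.81% of promoters, were in none of the 6 windows. The window listed for *Krt14* (chr11:100205981-100206280) lies inside the gene as GENCODE M21 draws it and is not shown.

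Regions of skin were drawn by clustering the spots without any keratin, so that no keratin level took part in them. The 6411 spots formed 12 clusters, and 5 of them took a name from marker genes. The IFE-like cluster (843 spots, 11 of 12 markers at a log2 fold of at least 1) was led by *Lce1m*, *Lor* and *Krtdap*, genes of the cornifying epidermis. The upper HF-like cluster (hair follicle, 793 spots) was led by *Car6*, *Atp12a* and *Plet1*, the sebaceous gland-like cluster (258 spots) by *Serpina3j*, *Serpina3b* and *Fa2h*, and the muscle-like cluster (746 spots) by *Myl1*, *Ttn* and *Cox6a2*. The ORS-like cluster (745 spots) has the weakest name. It was led by *AU018091*, *Slc4a1* and *Atp2c2*. Of its marker list, *Cd34* and *Aldh3a1* stood below their IFE-like CPM, at 45.8 ± 6.98% and 5.27 ± 1.45% of it, and the rest stood above. The cluster rests on 3 of 8 markers, *Sox9*, *Lgr5* and *Barx2*, has none of them among its 20 leading genes, and its summed ORS markers (1265 to 1397 CPM over slices) lay below those of the upper HF-like cluster (1383 to 1684 CPM). It also holds 56 spots of replicate 1 against 218 to 239 of each other replicate, because 260 spots of replicate 1 fell into an unnamed cluster of 270 spots with nearly the same leading genes. CPM is the share of a gene in the UMIs of all spots in a region of a slice, scaled to counts per 1e+06. Slices held 19393026 to 26910422 UMIs, 9 of 6420 spots with under 250 genes were left out, and 1842 spot barcodes occur in more than 1 slice, being array positions and not cells.

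The keratins fell into 3 patterns. The basal pair was highest in the follicle and not in the epidermis, *Krt1*, *Krt10*, *Krt77* and *Krt78* were high in the IFE-like spots and low in every other named region, and *Krt80* was in between. *Krt2* was close to absent. In a spot that covers several cells, fewer cells of a type and less RNA per cell cannot be told apart.

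*Krt5* in the IFE-like spots was 1727, 1551, 1870 and 1987 CPM in replicates 1 to 4. In the ORS-like spots it was 4248, 4155, 4153 and 4396 CPM. The lowest ORS-like slice lay above the highest IFE-like slice. *Krt14*, its type I partner, was 2771, 2871, 3160 and 2872 CPM in the IFE-like spots. In the ORS-like spots *Krt14* was 7015, 7561, 7246 and 6235 CPM, again with no overlap. The upper HF-like spots were close to the ORS-like ones, with *Krt5* at 3415 ± 267 CPM (SD, n = 4 slices) and *Krt14* at 6593 ± 739 CPM. For *Krt14* the upper HF-like and ORS-like ranges overlapped (5717 to 7270 and 6235 to 7561 CPM), and for *Krt5* they did not. Sebaceous gland-like spots held *Krt5* at 1804 ± 272 CPM, which overlapped the IFE-like range, and muscle-like spots held 677 ± 120 CPM.

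*Krt10*, the main suprabasal type I keratin, was 2989, 3123, 2957 and 3568 CPM in the IFE-like spots of replicates 1 to 4. It was 149, 72.3, 83.3 and 130 CPM in the ORS-like spots and 170, 193, 192 and 243 CPM in the upper HF-like spots. All IFE-like slices were thus more than 10 times above all slices of these regions, where replicate 1 had the highest ORS-like value and replicate 4 the highest upper HF-like value. *Krt77* had the highest count of any suprabasal member, with 4694, 5578, 5725 and 5991 CPM in the IFE-like spots and 192, 120, 155 and 194 CPM in the ORS-like spots. *Krt1*, the partner of *Krt10* in the textbook pair, was 815, 701, 693 and 785 CPM in the IFE-like spots and 39.8, 15.7, 19.9 and 28.1 CPM in the ORS-like spots. *Krt78* was counted least of these, at 99.8 ± 2.39 CPM in the IFE-like and 3.80 ± 1.00 CPM in the ORS-like spots. Of all UMIs of *Krt1*, *Krt10* and *Krt77* in the kept spots, 78.7%, 76.8% and 78.8% were in the IFE-like spots, against 9.87% of the *Krt5* and 10.7% of the *Krt14* UMIs. The IFE-like spots were 843 of the 6411 kept, with a median of 8870 UMIs against 12618 over all kept spots. The low shares of the basal pair thus do not show depletion in the IFE-like spots.

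**Figure D1:**
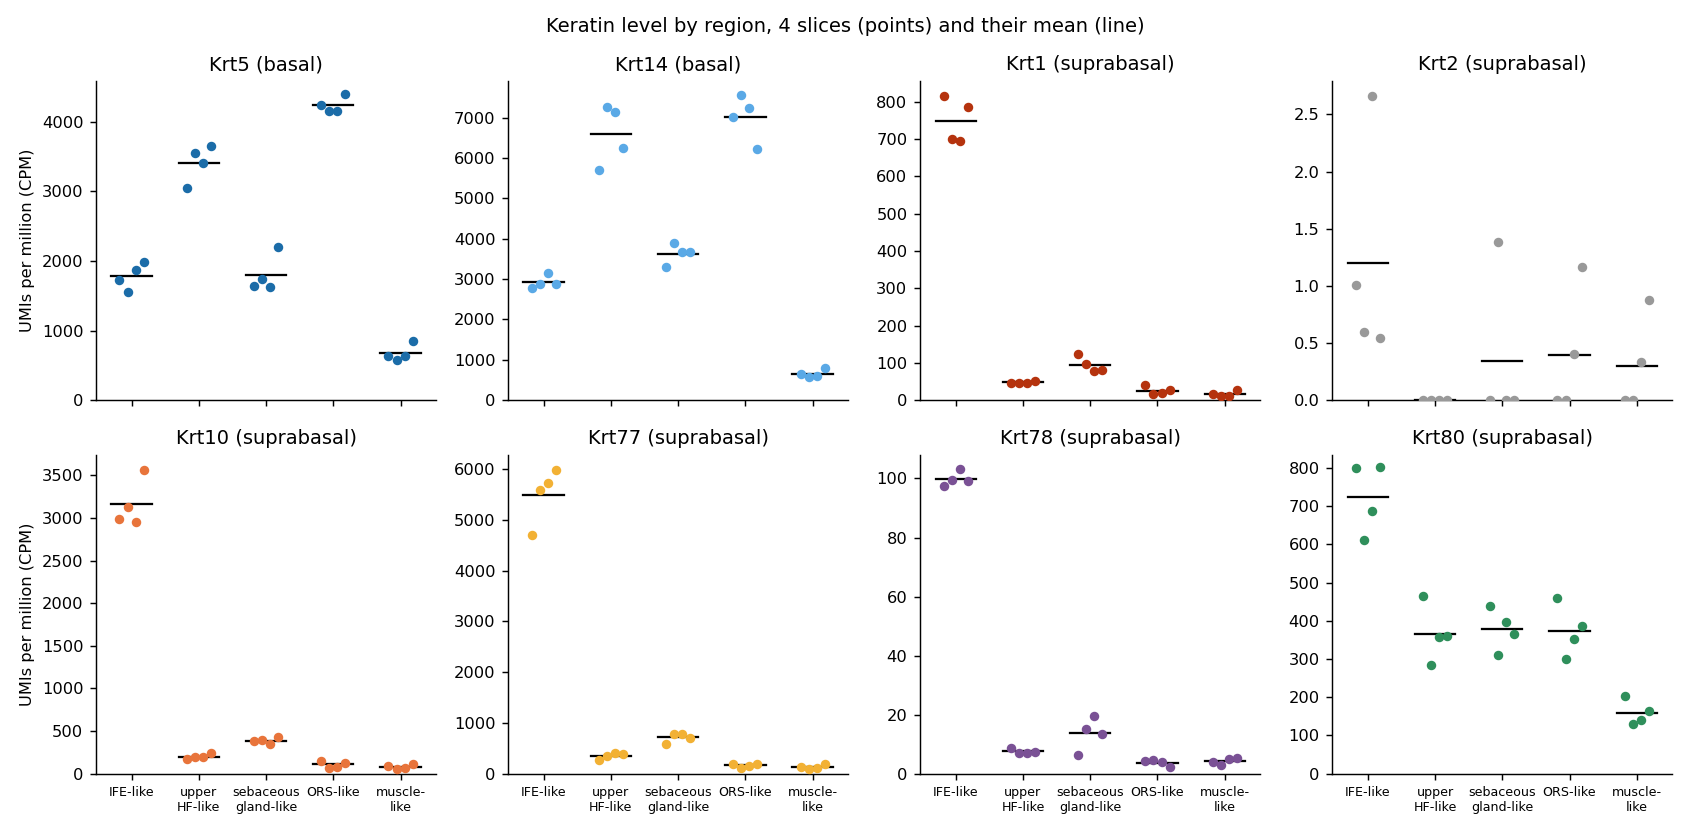
Level of each keratin (CPM, linear axes from 0) in 5 named regions, with a point for each of the 4 slices (replicates 1 to 4 from left to right) and a line at their mean. Krt5 and Krt14 peak in the upper HF-like and ORS-like spots, Krt1, Krt10, Krt77 and Krt78 in the IFE-like spots, Krt80 keeps about the same level in 3 follicle regions, and the Krt2 axis ends below 3 CPM.

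The basal pair was called lower, and the suprabasal members higher, in the IFE-like than in the ORS-like spots. Of the 7 members that passed the filter on low counts, 5 were higher and 2 lower at an adjusted p under 0.05 in edgeR's quasi-likelihood test, where 23.0% of all features were higher and 20.4% lower (43.4% called). *Krt5* was 2.35-fold lower in the IFE-like spots (log2 fold -1.23, SE 0.06, adjusted p = 5.06e-24, edgeR) and *Krt14* 2.37-fold lower (log2 fold -1.24, SE 0.07). *Krt10* was 32.1-fold higher (log2 fold 5.004, SE 0.10, adjusted p = 6.16e-40, edgeR), *Krt1* 32.7-fold, *Krt77* 35.6-fold and *Krt78* 27.1-fold higher. *Krt80* was 1.98-fold higher (log2 fold 0.99, SE 0.06, adjusted p = 4.84e-19, edgeR). Median log2 folds were -1.24 for the basal pair and 5.004 for the suprabasal set, against -0.01 over all 11992 features tested. Since the regions were drawn from other genes of the same spots, which run with the keratins, these p-values describe how far the regions stand apart over slices and are too small as tests of independent groups.

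Against the upper HF-like spots the directions were the same, with 5 suprabasal members higher and 2 basal members lower among 7, where 15.8% of features were higher and 13.9% lower (29.7% called). *Krt14* was 2.23-fold lower in the IFE-like spots and *Krt5* 1.90-fold lower. *Krt1*, *Krt10* and *Krt77* were 15.8-fold, 16.1-fold and 15.6-fold higher. *Krt80* was 2.01-fold higher. With the spots cut into 16 clusters, the log2 fold of *Krt5* against the upper HF-like spots was -0.15 (adjusted p = 0.0995, edgeR) and no longer passed, with values from -0.96 to -0.15 over the alternatives, and that of *Krt14* was -0.33. The same clusters lowered the log2 folds of *Krt1*, *Krt10*, *Krt77* and *Krt78* from 3.98, 4.01, 3.96 and 3.73 to 2.42, 2.51, 2.41 and 2.44, which still passed.

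*Krt2* gave 31 UMIs among the 91815705 of all slices, split 12, 3, 9 and 7 over replicates 1 to 4, and did not pass the filter. It was found in 9 of 843 IFE-like spots (1.07%, exact 95% binomial interval 0.489 to 2.02%) at a median depth of 8870 UMIs per spot. In muscle-like spots, which should lack it, it was found in 3 of 746 (0.402%, 0.0830 to 1.17%) at a median depth of 14161 UMIs. As CPM over all slices it was 1.12 in the IFE-like and 0.263 in the muscle-like spots. The share was thus higher in the shallower IFE-like spots, with intervals that overlap. The main fit did not test *Krt2*. In the fit with no filter it was not called between IFE-like and muscle-like or ORS-like spots. No UMI was seen in 793 upper HF-like spots (exact 95% binomial interval up to 0.464%, or up to 0.378% by the limit of 3 counts), and with no filter *Krt2* was called higher in IFE-like than in upper HF-like spots. These intervals and limits cover counting error only. *Krt1*, *Krt10* and *Krt77*, which sit beside it in differentiated epidermis, gave 7740, 32751 and 54564 UMIs.

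**Figure D2:**
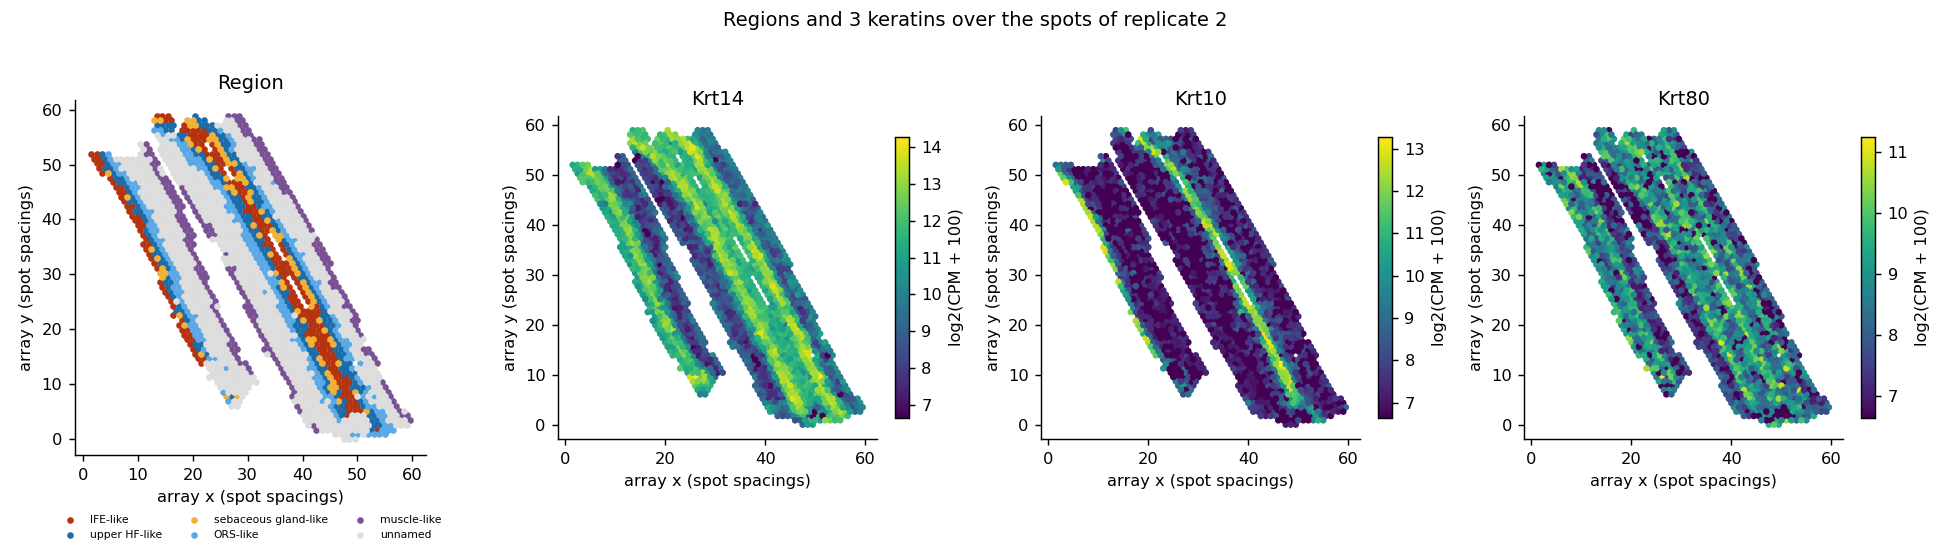
Spots of replicate 2 on the array (axes in spot spacings), coloured by region in the left panel and by log2(CPM + 100) of Krt14, Krt10 and Krt80 in the others. Krt10 is a line 1 or 2 spots wide along the IFE-like spots, Krt14 runs as bands beside it, and Krt80 is spread through the follicle depth. Sections lie side by side, so the nearest IFE-like spot of a muscle-like spot can belong to a neighbouring section.

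Distance was counted as steps on the spot array from the nearest IFE-like spot, which is step 0. *Krt14* rose from 2919 ± 168 CPM at step 0 to 4844 ± 224 at step 1 and 7372 ± 656 at step 2, then was 4744 ± 844 at step 3, 1478 ± 221 at step 4 and 487 ± 56.5 CPM at step 5 (n = 4 slices). *Krt5* went from 1784 ± 188 CPM at step 0 to 3917 ± 176 at step 2 and 602 ± 46.5 CPM at step 5. Both peaked at step 2 in 4 of 4 slices. At that step 37.4% of spots were upper HF-like and 35.6% ORS-like. The summed pair was higher at step 3 than at step 0 in 4 of 4 slices, by 0.55, 1.08, 0.66 and 0.71 on the log2 scale, with a mean of 0.75 ± 0.23 (exact sign-flip test, two-sided, p = 0.13, the smallest that 4 slices can give).

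The suprabasal members dropped within 1 step. *Krt10* was 3159 ± 282 CPM at step 0, 296 ± 50.7 at step 1, 136 ± 34.0 at step 2 and 42.7 ± 10.7 CPM at step 5. *Krt77* went from 5497 ± 562 to 554 ± 127, 224 ± 50.2 and 47.9 ± 11.6 CPM over the same steps. *Krt1* went from 749 ± 60.7 to 74.7 ± 4.57 CPM in the first step and to 6.59 ± 3.22 CPM at step 5, where it was lowest in 4 of 4 slices. At step 8, where 68.8% of spots were muscle-like, *Krt10* and *Krt77* were 68.0 ± 16.4 and 93.5 ± 30.1 CPM. This was above step 5 in 4 of 4 slices for *Krt77* and in 3 of 4 for *Krt10*, which in replicate 4 was 54.7 CPM at step 5 and 54.4 CPM at step 8. In UMIs per spot neither gene was higher at step 8 in replicate 4, nor was *Krt77* in replicate 1. For the set as a whole, step 3 lay below step 0 by 3.60, 4.09, 3.95 and 3.69 on the log2 scale in replicates 1 to 4 (exact two-sided sign-flip p = 0.13). Step 0 is the IFE-like cluster itself, drawn from genes that run with the suprabasal keratins. A drop outside it was thus partly built in, and this p is not that of an independent test.

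**Figure D3:**
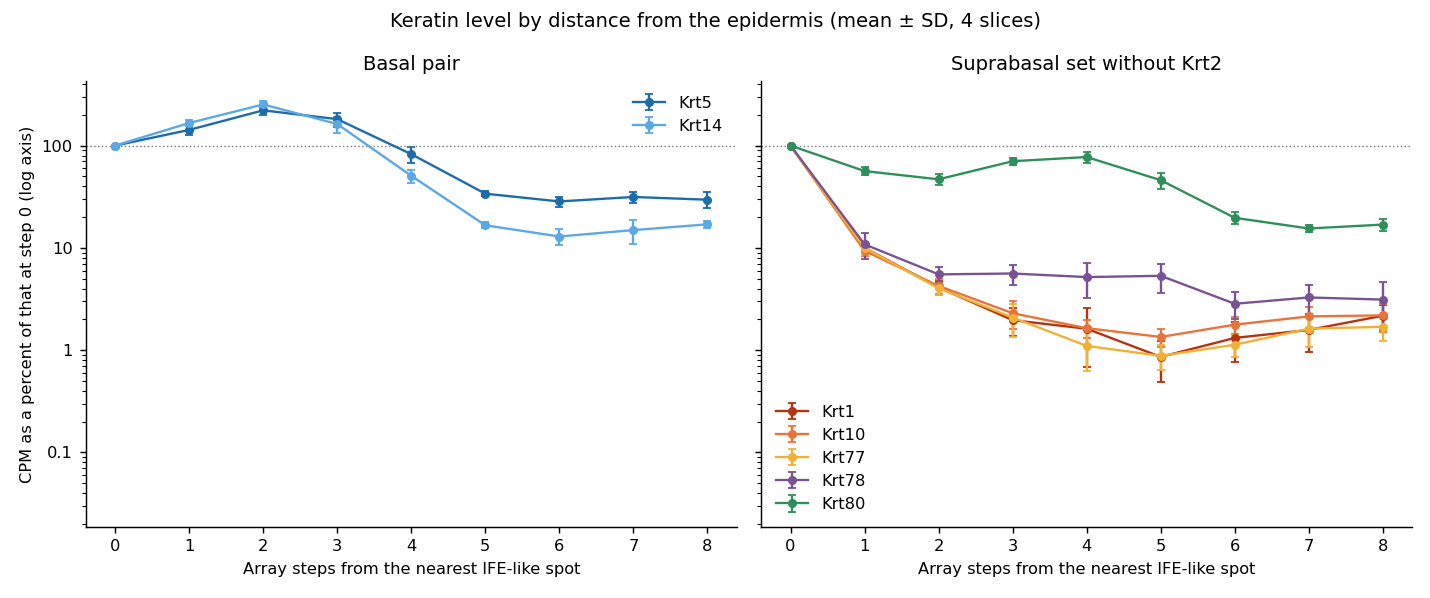
CPM of each keratin as a percent of its CPM in the IFE-like spots (log axis) against array steps from the nearest IFE-like spot, as means ± SD over 4 slices. The basal pair rises to step 2 before it falls, Krt1, Krt10, Krt77 and Krt78 fall to about 10% at step 1, and Krt80 has a second maximum at step 4.

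*Krt80* left the suprabasal set outside the epidermis. It was 725 ± 93.2 CPM at step 0, 341 ± 73.5 at step 2, 554 ± 16.6 at step 4 and 142 ± 24.2 CPM at step 6. At step 4 an unnamed cluster led by *Gm11596*, *Gm11595* and *Krtap4-9*, the last a keratin-associated protein gene of the hair fibre, held 41.7% of the spots and 54.9% of the *Krt80* UMIs. In that cluster *Krt80* was 774 ± 89.7 CPM, with a range over slices (686 to 895 CPM) that overlapped the IFE-like range (610 to 801 CPM). A further unnamed cluster, led by *Krtap11-1*, *Capn12* and *Ly6g6d*, held *Krt80* at 431 ± 37.98 CPM. The ratio of *Krt80* to *Krt10* was 0.229 in the IFE-like and 3.56 in the ORS-like spots, higher in 4 of 4 slices by 3.96 ± 0.40 on the log2 scale (exact two-sided sign-flip p = 0.13).

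The ratio of the basal pair to the suprabasal set, as log2 of summed UMIs, condenses both trends. In the IFE-like spots it was -1.06, -1.19, -1.02 and -1.21 in replicates 1 to 4, so the suprabasal UMIs outnumbered the basal ones in every slice. It was 3.74, 4.52, 4.22 and 3.84 in the ORS-like spots and 3.18, 3.62, 3.38 and 3.23 in the upper HF-like spots. The difference from the IFE-like spots was 5.20 ± 0.39 for ORS-like and 4.47 ± 0.24 for upper HF-like spots, with 4 of 4 slices above 0 each time (exact two-sided sign-flip p = 0.13). With regions taken from 16 clusters the upper HF-like difference went down to 2.55.

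IFE-like spots varied among themselves. The basal pair was 33.3% of the members' UMIs in the median IFE-like spot, with 18.3% and 67.6% at the 10th and 90th percentiles of 836 spots with at least 20 such UMIs, and the basal pair held the majority in 24.5% of them. The median was 95.2% in ORS-like and 92.0% in upper HF-like spots. The 697 IFE-like spots next to an upper HF-like or sebaceous gland-like spot had a higher log2 ratio (-0.99 ± 0.10) than the 146 farther away (-1.55 ± 0.31). The difference of 0.55 ± 0.28 had the same sign in 4 of 4 slices (exact two-sided sign-flip p = 0.13). A spot covers several cells, so a mixed ratio does not show cells that make both kinds.

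Within IFE-like spots thinned to 5500 UMIs (708 of 843 spots deep enough), *Krt10* and *Krt77* ran together, with Spearman correlations over spots of 0.91 to 0.92 in the 4 slices. *Krt1* with *Krt10* gave 0.74 to 0.76, and *Krt80* with *Krt10* 0.44 to 0.54. *Krt5* with *Krt14* gave only 0.18 to 0.37 there, but 0.58 to 0.74 in ORS-like spots. In ORS-like spots *Krt10* with *Krt77* gave -0.0018 to 0.25, and *Krt1* with *Krt10* -0.05 to 0.17. Whether the level of the counts accounts for these differences was not tested. *Krt14* with *Krt10* gave -0.02 to 0.12 in IFE-like spots, neither rising together nor opposed. These are descriptions of spots that share a section and a library.

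*Krt1*, *Krt10* and *Krt77* were counted in similar proportions in the 5 regions, unlike *Krt80* above. *Krt77* over *Krt10* was 1.74 in the IFE-like spots, 1.79 in the upper HF-like, 1.83 in the sebaceous gland-like, 1.56 in the ORS-like and 1.57 in the muscle-like spots. *Krt1* over *Krt10* was 0.237, 0.242, 0.241, 0.234 and 0.194 in the same order. Against the IFE-like spots the log2 difference of *Krt1* over *Krt10* was 0.03 ± 0.04 in upper HF-like and -0.29 ± 0.29 in muscle-like spots (exact two-sided sign-flip p = 0.375 and 0.25). *Krt77* over *Krt10* was lower in the ORS-like spots in 4 of 4 slices, with a log2 difference of -0.16 ± 0.10 (exact two-sided sign-flip p = 0.13). *Krt78* over *Krt10* was higher in the muscle-like spots in 4 of 4 slices, by 0.71 ± 0.25 on the log2 scale (exact two-sided sign-flip p = 0.13), from 48 *Krt78* UMIs there. In the basal pair, *Krt5* over *Krt14* was 0.609 in the IFE-like and 0.606 in the ORS-like spots, and 1.04 in the muscle-like spots, where it was higher than in the IFE-like spots by 0.67, 0.90, 0.86 and 0.64 on the log2 scale in replicates 1 to 4 (exact two-sided sign-flip p = 0.13). With regions from marker sums the ORS-like minus IFE-like difference was -0.26 ± 0.04 on the log2 scale, so the near equality of those 2 regions depends on how they are drawn. By distance the log2 ratio went from -0.91 ± 0.12 at step 2 through -0.02 ± 0.13 at step 4 to 0.43 ± 0.07 at step 6. It then fell to 0.07 ± 0.08 at step 8 and -0.09 ± 0.21 at step 9, where most spots were muscle-like. Ratios between genes are given only to compare regions, since counting can differ from gene to gene.

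**Figure D4:**
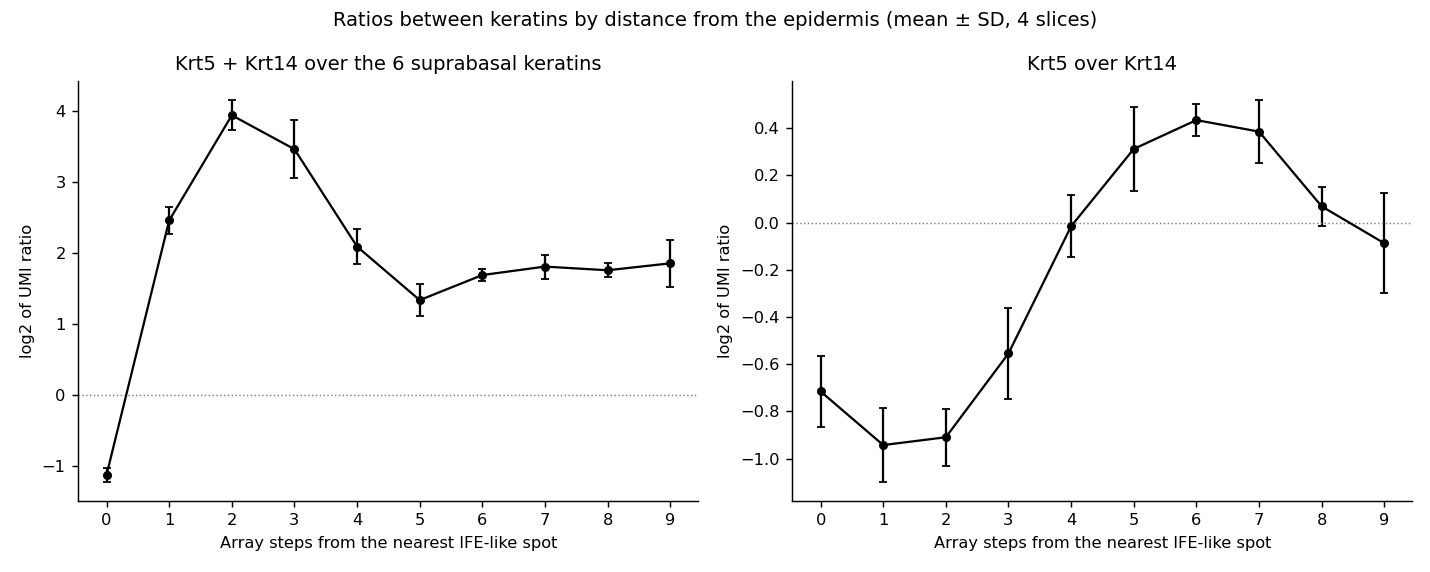
Log2 ratios of UMIs against array steps from the nearest IFE-like spot, as means ± SD over 4 slices, with a dotted line at equal counts. The ratio of basal to suprabasal keratins crosses equality within the first step and peaks at step 2, and Krt5 exceeds Krt14 by more than the SD at steps 5 to 7.

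Skeletal muscle fibres do not make epidermal keratins, yet keratin UMIs were counted in the muscle-like spots. *Krt10* there was 90.5, 60.1, 70.9 and 113 CPM in replicates 1 to 4, *Krt77* 130, 96.2, 112 and 190 CPM, and *Krt1* 17.9, 10.3, 12.2 and 27.5 CPM. In all 3 genes, and in *Krt5* and *Krt14*, replicate 4 was highest and replicate 2 lowest. As a percent of the IFE-like CPM, *Krt1* stood at 2.23 ± 0.90%, *Krt10* at 2.63 ± 0.57% and *Krt77* at 2.41 ± 0.68% (SD, n = 4 slices), so these 3 did not differ beyond their spread. *Krt78* stood at 4.29 ± 0.95%. With regions from marker sums these 4 stood lower, at 1.34, 1.504, 1.42 and 2.30% for *Krt1*, *Krt10*, *Krt77* and *Krt78*. Of the keratin-free IFE markers, genes of cornification, *Lor* stood at 2.30 ± 0.68%, *Krtdap* at 2.18 ± 0.61% and *Flg2* at 2.06 ± 0.74%, and the 10 with at least 50 UMIs in muscle had a median of 3.51%, from 1.62% for *Lce1a1* to 64.2% for *Cnfn*. In the other direction, the 11 muscle markers were in the IFE-like spots at a median of 3.91% of their muscle-like CPM (3.37 to 6.68%).

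Relative to the IFE-like level, the basal pair and *Krt80* were well above these percents. In muscle-like spots *Krt5* was at 37.9 ± 3.72%, *Krt14* at 22.4 ± 3.94% and *Krt80* at 21.9 ± 2.43% of the IFE-like CPM, with no slice below 18.7%. Relative to the ORS-like level the order turned, with *Krt5* at 15.9 ± 2.37%, *Krt14* at 9.41 ± 2.28% and *Krt80* at 42.6 ± 2.02%, against 67.4 ± 22.2% for *Krt1*, 78.9 ± 12.3% for *Krt10* and 79.6 ± 13.2% for *Krt77*. Summed, the basal pair stood at 28.6, 26.2, 24.3 and 33.8% in replicates 1 to 4 and the suprabasal set at 4.76, 2.96, 3.34 and 4.46%. Counted as UMIs per spot and not as CPM, *Krt5* was 10.2 ± 1.18 and *Krt14* 9.84 ± 0.85 per muscle-like spot, against 16.7 ± 3.50 and 27.2 ± 3.72 per IFE-like spot, and *Krt77* 1.98 ± 0.47 against 50.9 ± 6.20. All 12 IFE markers and all 8 ORS markers had a UMI somewhere in the muscle-like spots, as all 11 muscle markers had in the IFE-like spots. Over so many spots this was almost certain beforehand and tells little. The ORS list stood at a summed 531 to 612 CPM in muscle-like spots, against 1265 to 1397 CPM in ORS-like spots. The highest of that list in muscle-like spots were *Postn* (217 CPM) and *Cd34* (115 CPM). Gene by gene the list ran from 16.8 ± 2.88% (*Sox9*) and 18.5 ± 4.96% (*Barx2*) to 109 ± 16.3% (*Cd34*) of the ORS-like CPM, so the sum does not stand for each marker. Whether free RNA or epithelial cells beneath these spots supplied the keratin UMIs was not tested.

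**Figure D5:**
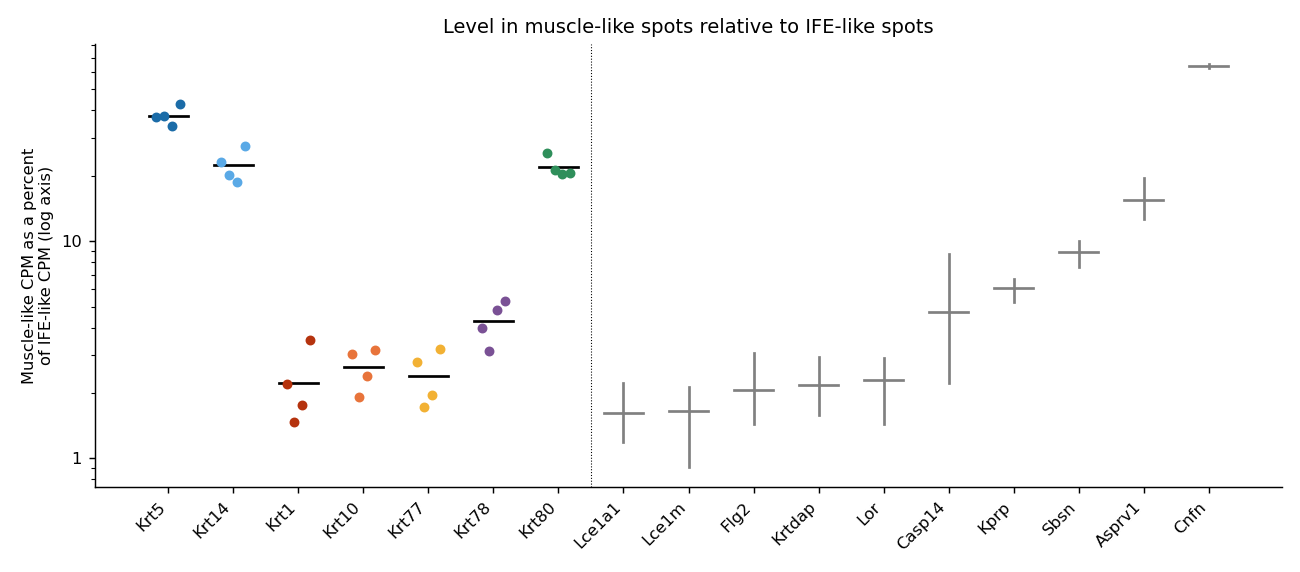
CPM in muscle-like spots as a percent of CPM in IFE-like spots (log axis), for 7 keratins (points are the 4 slices, line their mean) and for 10 IFE marker genes (line from lowest to highest slice, bar at the mean). Krt1, Krt10 and Krt77 lie with Lor and Krtdap near 2%, and Krt5, Krt14 and Krt80 lie between 18.7 and 42.9%.

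Muscle-like spots nearer the epidermis held more of the basal pair. At 7 steps or less from an IFE-like spot (445 spots) the pair stood at 1510 ± 246 CPM, and beyond 8 steps (87 spots) at 952 ± 175 CPM. The log2 difference was 0.67 ± 0.20, higher near in 4 of 4 slices (exact two-sided sign-flip p = 0.13). Of the 87 far spots, 85 were at step 9. That step held 39, 54, 4 and 9 spots of any region in replicates 1 to 4, so replicates 3 and 4 had few far spots. The suprabasal set was 437 ± 118 CPM near and 351 ± 117 CPM far, higher near in 3 of 4 slices by 0.34 ± 0.72 on the log2 scale, a difference within the spread between slices (exact two-sided sign-flip p = 0.5). Distance was also counted from the nearest IFE-, upper HF-, sebaceous gland- or ORS-like spot (421 spots near, 144 far). The log2 difference was then 0.55 ± 0.28 for the basal pair (4 of 4 slices) and 0.70 ± 0.89 for the suprabasal set (3 of 4 slices). Which set differed more thus depended on the distance used.

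In the fit, 7 of 7 tested members were higher in the IFE-like than in the muscle-like spots, where 29.9% of all features were higher and 30.8% lower (60.7% called). The folds ran from 2.48 for *Krt5*, 4.20 for *Krt14* and 4.27 for *Krt80* to 42.8 for *Krt1*. Between ORS-like and muscle-like spots, 3 of 7 were called, all higher in the ORS-like spots, where 24.9% of features were higher and 27.8% lower (52.7% called). These were *Krt14* (9.95-fold), *Krt5* (5.82-fold) and *Krt80* (2.16-fold). *Krt1*, *Krt10*, *Krt77* and *Krt78* gave log2 folds of 0.39, 0.17, 0.16 and -0.30 that did not pass (adjusted p = 0.0713, 0.202, 0.256 and 0.445, edgeR). This count rested on the settings, with 6 members called on library sizes alone, 5 with no filter and 7 with regions taken from marker sums. The share of all features called under each of these settings is not set beside them, so the rise is not read as particular to the members.

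The genes around the keratins divided less cleanly. Of 12 genes that anchor basal cells to the basement membrane or mark them, 6 were higher and 3 lower in the IFE-like than in the ORS-like spots, with a median log2 fold of 0.24. *Lamb3*, a chain of laminin 332, was highest (log2 fold 2.03, SE 0.11) with *Itga6*, an integrin of hemidesmosomes (0.58, SE 0.10), and *Cdh3*, P-cadherin, was lowest (-1.05, SE 0.12) with *Itga3* (-0.48, SE 0.14). Over all features 23.0% were higher and 20.4% lower. Against the upper HF-like spots, where both basal keratins were also lower in the IFE-like spots, 3 of the 12 were higher, 3 lower and 6 not called, with a median log2 fold of -0.09, where 15.8% of features were higher and 13.9% lower. Of 12 genes of desmosomes and suprabasal differentiation, 8 were higher and 2 lower, with a median log2 fold of 0.28 against 5.004 for the suprabasal keratins. *Dmkn*, a secreted protein of differentiating epidermis, was highest (2.77, SE 0.05) with *Dsg1a*, a desmosomal cadherin of the upper layers (1.33, SE 0.06). *Dsg3*, the desmosomal cadherin of the deep layers (-0.95, SE 0.08), and *Pkp3* (-0.23, SE 0.06) were lowest.

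Among 6 other keratins of the skin, *Krt79* of the follicle mouth (log2 fold 3.72, SE 0.10) and *Krt15* (2.21, SE 0.07) were higher in the IFE-like than in the ORS-like spots. *Krt6a* (-1.66, SE 0.07), *Krt75* of the companion layer (-1.13, SE 0.07), *Krt16* (-0.68, SE 0.13) and *Krt17* (-0.46, SE 0.05) were lower. *Krt15*, a basal keratin in its own right, thus ran against *Krt5* and *Krt14*, with *Krt14* over *Krt15* at 1.54 in IFE-like and 16.6 in ORS-like spots. *Krt14* shares long stretches of sequence with *Krt16* and *Krt17*, and *Krt5* with *Krt6a*, and how reads common to them were counted is not given in the sources used here.

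Over the 20 sums of 5 regions and 4 slices, the features other than keratins whose log2 profile was most like that of the basal pair were *Iffo2*, *Sox9*, *Atp1b3*, *Fam234b* and *Sdc1* (Pearson r = 0.99, 0.98, 0.98, 0.98 and 0.98), of which *Sox9* had helped to name the ORS-like cluster. Most like the suprabasal set were *Lor*, *Lce1m*, *2310050C09Rik*, *Lce1b* and *Flg2* (r = 0.998, 0.995, 0.994, 0.993 and 0.992), of which *Lor*, *Lce1m*, *Lce1b* and *Flg2* were among the IFE markers. Against the mean profile of *Krt1*, *Krt10* and *Krt77*, *Krt78* gave r = 0.96 and *Krt80* r = 0.83, and against that of *Krt5* and *Krt14*, *Krt80* gave r = 0.51. The sums of a slice share its library, and those of a region its spots.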

How the data were processed

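Spatial transcriptomics (Visium) was deposited by the authors as UMI counts per spot for 4 slices, made with Space Ranger 2.0.1 per the file headers, and mm10 is named in the submitters' processing notes. A count table summed over spots has no replicate beyond the slice. The members and gene lists here were chosen with earlier results of these data known.

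Spots with at least 250 genes (6411 of 6420) were log-normalized and clustered in Seurat 5.3.0 (2000 variable genes, 30 components, 20 neighbours, resolution 0.65) after 77 features, every keratin and both tested lists, had been left out. A cluster was named where at least 2 markers of a list had a log2 fold of 1 (pseudocount 5 CPM), at least 50% had 0.5 and the mean was at least 0.5, a rule set after the clusters had been seen. Dividing muscle-like spots by distance, and IFE-like spots by contact with the follicle, was also a choice made with the data in view. Doublets were not called, as each spot takes up several cells. The median depth was 12618 UMIs per spot.

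UMIs summed per slice and region were tested in edgeR 4.0.16 (R 4.3.3, TMM, filterByExpr, quasi-likelihood, slice as block, Benjamini-Hochberg over 11992 features), and single values with exact sign-flip tests. The block is the slice, whose sums come from the same sections. On simulated counts for IFE-like against ORS-like spots (11635 features fitted), 89% of 2-fold and 100% of 4-fold changes were called. The changes were placed only in features above a low-count limit. Counts were drawn independently for each gene, with no slice effect beyond library size. These rates therefore describe the simulation and not the power of the real fit. Named genes were the members, both lists' highest and lowest genes, 6 other keratins and the 5 profiles most like each set. Alternatives covered the regions, depth, filter, normalization, DESeq2 1.42.0, the block, strips of the slices and each slice left out. Positions are from GENCODE M21.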

Additional observations from a re-analysis of the deposited data

How the results depend on the processing

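Over 13 alternatives at most, the members kept their direction and side of the threshold in 258 of 259 refits of the 3 comparisons with IFE-like spots. DESeq2 and a fit with no replicate block changed none of the counts of members called, 7, 7, 7 and 3 in both. Leaving out each slice in turn gave 7 to 7 members for those 3 comparisons, and 3 to 4 for ORS-like against muscle-like, where *Krt1* was called without replicate 4 (log2 fold 0.58). Adding the spots of the cluster from replicate 1 to the ORS-like spots, an alternative chosen after seeing the data, left 7 members called against IFE-like spots and 4 against muscle-like spots. With no filter, *Krt2* was also called higher in IFE-like than in upper HF-like spots, for 8 members in all. It was not called in IFE-like against ORS-like or muscle-like spots, where the count stayed at 7.

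The count for ORS-like against muscle-like spots moved to 6 with library size alone, 5 with no filter beyond 1 UMI and 7 with regions from marker sums. In that comparison the sign turned for *Krt78* with marker sums (0.89) and without replicate 4 (0.0047, with -0.60 to 0.0047 over the slices left out), and with 16 clusters for *Krt10* (-0.0067) and *Krt77* (-0.0472). The cause was not tested. *Krt5* over *Krt14*, ORS-like minus IFE-like, was -0.0087, moved to -0.26 with marker sums, and turned to 0.0241 with 16 clusters, 0.0020 without replicate 1 and 0.0037 without replicate 3, from -0.0207 to 0.0037 over the slices left out. The suprabasal set in muscle moved from 3.88% of the IFE-like level to 2.36% with marker sums and 2.47% with 16 clusters, both of which take fewer IFE-like spots (402 and 417 against 843). With 16 clusters *Krt1*, *Krt10*, *Krt77* and *Krt78* stood there at 1.41, 1.63, 1.52 and 2.68%. The basal pair kept 26.3 to 29.5% over all 10 alternatives, and the basal rise to step 3 ran from 0.64 to 1.20 (log2).

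The 4 slices of 3 mice give no measure of the spread between mice, and the smallest sign-flip p is 0.13. *Krt2* and *Krt78* are limited by depth. Counts of members called under the alternatives stand without the share of all features called under the same setting, and show only how far the calls depend on settings. The ORS-like name is weak. The difference in the basal to suprabasal ratio between upper HF-like and IFE-like spots depends on the clustering, and the cause was not tested.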

Other observations

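None of the 42 sets of 4 slice values examined for the members held a slice far from the others by Dixon's criterion. With each slice divided into 3 strips of equal width, the log2 ratio of the basal pair to the suprabasal set in IFE-like spots ran from -1.38 to -0.94 over the 12 strips, below 0 in each.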
